A study of Mus musculus with 13 samples.

Results

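The genes described here are 39 genes of the cell cycle and of DNA replication, of 19505 genes on the array. They were chosen by name and not by a cut on their values, but with earlier results of these data known. They were kept in 2 classes: 15 replication genes, needed for the step from G1 to S phase and for copying DNA, and 24 mitotic genes, needed for entry into and passage through mitosis. Of these, 38 had 1 probe set each, 15 replication and 23 mitotic. Foxm1, a transcription factor of mitotic genes, was not analysed here because no probe set carried its name.

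Gut epithelium is renewed from the crypts, where stem cells and their transit-amplifying daughters divide before they differentiate and move to the surface. In a dividing cell, E2F factors and cyclin E with its kinase start S phase. The MCM helicase is loaded on origins by Cdc6 and activated by Cdc45 and the GINS complex, while thymidylate synthase and ribonucleotide reductase supply nucleotides. Cyclin A, cyclin B and Cdk1 then drive mitosis, the chromosomal passenger and checkpoint proteins guard chromosome attachment, and Cdc20 and Ube2c act with the anaphase-promoting complex to end it. Germinal centres of the lymphoid follicles in the gut wall also hold many dividing cells.

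Colon and ileum came from female FVB mice, all of which, untreated ones included, carried a syngeneic mammary carcinoma that expresses human HER2. Vancomycin, an antibiotic against Gram-positive bacteria, was added to the drinking water (200 mg/L) when mice were 4 weeks old and kept until the end; the other mice received no antibiotic. The end was at 9 weeks (the labels leave unsaid if this counts age or treatment), when tumours measured 150 mm3. There were 4 arrays of untreated colon, 3 of vancomycin colon, 3 of untreated ileum and 3 of vancomycin ileum. The tissue was washed and frozen whole, so each array mixes all cell types of the gut wall, and fewer dividing cells and less message per dividing cell cannot be told apart. Replicate numbers are those of the titles; the same number in both tissues is not stated to mean the same mouse, nor different numbers different mice, so the spread behind each p-value is that between samples and may be technical.

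Values are log2 expression values, on which a difference of 1 is nominally a doubling. All members lay below 16, which 437 of 28846 probe sets exceeded. Differences were tested in limma over all 19572 named probe sets, and called where the Benjamini-Hochberg adjusted p was under 0.05. The tissue labels matched the markers: the mean of 5 colon markers was 14.39 to 15.62 in colon and 7.91 to 8.40 in ileum, and that of 6 ileum markers was 14.20 to 15.50 in ileum and 6.78 to 7.99 in colon. Vancomycin ileum replicate 11 stood apart, with a mean correlation to its group of 0.977 (0.983 and 0.987 for the others), a mean of 9 measured B cell markers of 10.09 against 7.21 to 7.96 in the other ilea, and a mean of 8 smooth muscle markers of 14.75 against 13.11 to 13.80. The main values of the ileum are given with and without it.

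The 2 classes differ in the promoter sequences that RefSeq gives for them (GRCm38.p6, from 250 bases before to 50 after the start), which were found for 31 of the 39 genes. Mitotic promoters are known for the cell cycle homology region, searched as TTTGAA and as its variant with a CpG in the middle, TTCGAA, often near a CCAAT box, and replication promoters for E2F sites, searched as TTTCCCGC, TTTCGCGC, TTTGCCGC or TTTGGCGC, all on both strands; matches of different motifs could overlap. The homology region was present in 15 of 19 mitotic promoters (78.9%) and 2 of 12 replication promoters (16.7%), beside 17% of the 19143 promoters of genes on the array. An E2F sequence was present in 4 of 12 replication promoters (33.3%) and 1 of 19 mitotic promoters (5.26%), beside 2.94%. CCAAT was present in 16 of 19 mitotic promoters (84.2%) and 8 of 12 replication promoters (66.7%), beside 37.9%. A match is a description of the letters and not evidence of binding. The 250 bases before the start are printed for 3 mitotic genes whose colon or ileum values are described below and for 2 replication genes, to show the contrast. Capitals mark homology region and CCAAT matches, on either strand, in Cdk1 (chr10:69352913-69353162, minus strand), Top2a (chr11:99024190-99024439, minus strand) and Ube2c (chr2:164769679-164769928, plus strand), and E2F sequences alone in Mcm6 (chr1:128359706-128359955, minus strand) and Cdc6 (chr11:98907901-98908150, plus strand).
Cdk1: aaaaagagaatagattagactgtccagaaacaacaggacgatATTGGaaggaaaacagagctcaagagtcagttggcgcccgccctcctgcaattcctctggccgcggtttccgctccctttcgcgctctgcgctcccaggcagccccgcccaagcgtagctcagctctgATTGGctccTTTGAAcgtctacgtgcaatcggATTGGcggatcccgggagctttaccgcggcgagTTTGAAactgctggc
Top2a: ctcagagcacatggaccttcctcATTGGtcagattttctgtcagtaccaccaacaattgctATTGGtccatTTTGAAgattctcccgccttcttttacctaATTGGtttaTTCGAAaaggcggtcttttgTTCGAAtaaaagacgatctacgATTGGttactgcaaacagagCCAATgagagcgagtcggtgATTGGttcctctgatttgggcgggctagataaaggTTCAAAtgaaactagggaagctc
Ube2c: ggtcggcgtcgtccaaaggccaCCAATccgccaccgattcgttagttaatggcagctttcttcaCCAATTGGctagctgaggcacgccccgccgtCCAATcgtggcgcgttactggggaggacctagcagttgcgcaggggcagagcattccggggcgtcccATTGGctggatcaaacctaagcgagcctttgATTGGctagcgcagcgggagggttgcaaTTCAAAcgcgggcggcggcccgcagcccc
Mcm6: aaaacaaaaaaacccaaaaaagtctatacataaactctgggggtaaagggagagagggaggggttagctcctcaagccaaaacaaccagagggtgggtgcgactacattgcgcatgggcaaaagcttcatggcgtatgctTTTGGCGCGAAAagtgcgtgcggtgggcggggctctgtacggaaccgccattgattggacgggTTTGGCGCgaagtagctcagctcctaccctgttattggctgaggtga
Cdc6: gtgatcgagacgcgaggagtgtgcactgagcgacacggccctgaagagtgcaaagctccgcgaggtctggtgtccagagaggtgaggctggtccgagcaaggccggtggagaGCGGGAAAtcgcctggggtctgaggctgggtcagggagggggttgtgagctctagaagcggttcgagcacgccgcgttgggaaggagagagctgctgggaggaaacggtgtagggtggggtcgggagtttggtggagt
In these windows Top2a held 4 homology region matches and 6 CCAAT boxes, Cdk1 held 2 and 3, and Ube2c held 1 and 6. In Ube2c one CCAAT box and the next, on the other strand, overlap. Mcm6 held 3 E2F matches, of which the first and the next overlap, and Cdc6 held 1. Cdk1 also holds an E2F sequence, TTTCGCGC, whose first base is at -131 from the start, left in lower case above. Mcm6 also holds 2 CCAAT boxes, read as ATTGG with first bases at -57 and -14, likewise left in lower case.

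The first comparison asked whether vancomycin changed these genes in the ileum. All 38 measured members had a lower mean under vancomycin, by 0.15 (Pcna) to 0.99 (Top2a) on the log2 scale, where 45.9% of all probe sets had a lower mean. The median difference was -0.42 for replication genes and -0.55 for mitotic genes, beside 0.02 for all probe sets. No single member passed in limma, where 0.536% of all probe sets were called (0.0511% higher and 0.485% lower), and 11 of 38 had an unadjusted p under 0.05, beside 10.1% of all probe sets. The values of the 2 groups did not overlap for 23 of 38 members, 17 of 23 mitotic and 6 of 15 replication, beside 16.9% of all probe sets.

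Top2a, the topoisomerase that untangles chromosomes, was at 11.28, 10.81 and 11.14 in the untreated ilea and at 10.20, 10.41 and 9.66 in vancomycin replicates 11, 13 and 14. Every vancomycin array was below every untreated one, a difference of -0.99 ± 0.30 (SE) with an adjusted p of 0.242 in limma. Bub1, a kinase of the spindle checkpoint, stood at 10.55, 10.20 and 10.39 without and at 9.30, 9.78 and 9.11 with vancomycin (-0.98 ± 0.27, adjusted p = 0.173). Bub1b, which encodes the checkpoint protein BubR1, was at 7.98, 8.16 and 8.49 against 7.69, 7.57 and 7.37 (-0.67 ± 0.18, adjusted p = 0.167). The groups of these 3 genes did not overlap, and in Bub1 and Bub1b too replicate 14 was the lowest array.

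Among replication genes, Ccne1, which encodes cyclin E1, was at 11.98, 12.10 and 12.21 without antibiotic and at 11.44, 11.52 and 11.27 with vancomycin (-0.69 ± 0.27, adjusted p = 0.398). Ccne2, for cyclin E2, was at 12.15, 12.44 and 12.29 against 11.54, 11.68 and 11.78 (-0.63 ± 0.26, adjusted p = 0.431). Mcm6, a helicase subunit, was at 11.46, 11.42 and 11.74 against 11.13, 11.20 and 10.80 (-0.50 ± 0.18, adjusted p = 0.35). None of these groups overlapped. The remaining origin licensing and helicase genes, Cdc6, Mcm2 to Mcm5, Cdc45 and Gins2, had differences of -0.59 to -0.19, and the clamp Pcna with Tyms, Rrm1 and Rrm2 of nucleotide supply -0.58 to -0.15. E2f1 was at -0.20 ± 0.22, with overlapping arrays.

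The chromosomal passenger genes Aurkb (-0.74), Birc5 (-0.75) and Cdca8 (-0.50), of a complex that corrects chromosome attachment, each had groups that did not overlap. The 6 genes of mitotic entry, Ccna2, Ccnb2, Cdk1, Mybl2, Plk1 and Aurka, lay between -0.75 (Mybl2) and -0.28 (Aurka). The 8 spindle and kinetochore genes, the motors Kif11, Kif20a, Kif23 and Cenpe with Nusap1, Tpx2, Hmmr and Cenpf, lay between -0.68 (Kif20a) and -0.27 (Hmmr), with a median of -0.35 and 0 of 8 at an unadjusted p under 0.05, beside medians of -0.74 for the passenger genes and -0.66 for the checkpoint and anaphase-promoting complex genes. Mki67, the antigen Ki-67 that marks dividing cells, was at 13.89, 13.94 and 13.89 without and 13.82, 13.77 and 13.08 with vancomycin, a difference of -0.35 ± 0.27 in which replicate 14 lay far below the other 2 vancomycin arrays.

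Replicate 14 held the lowest of the 6 ileal values for 31 of 38 members, where it held the lowest for 18.6% of all probe sets. Without it the median differences were -0.31 for mitotic and -0.31 for replication genes, and 23 of 23 mitotic and 14 of 15 replication members were still lower. Without replicate 11 the medians were -0.68 and -0.55 and all 38 were lower. The groups then did not overlap for 35 of 38 members, beside 32% of all probe sets, and 16 of 38 had an unadjusted p under 0.05, beside 10.7%. Top2a then differed by -1.04, Bub1 by -0.94, Bub1b by -0.74, Ccne1 by -0.70, Mcm6 by -0.54 and Ccne2 by -0.56, with adjusted p of 0.142 to 0.533 in limma. Mybl2, the B-Myb factor that activates mitotic genes, was at 9.18, 9.57 and 9.30 without antibiotic and 9.25, 8.42 and 8.13 with vancomycin; it was then called (-1.08, adjusted p = 0.0283), as it was with array weights (-0.93, adjusted p = 0.00755), which also called Bub1b (-0.66, adjusted p = 0.0167). Bub1 was called only without replicate 11 of the vancomycin colon, at an unchanged -0.98 with an adjusted p of 0.0359, as all groups share 1 estimate of the spread. The untreated ilea varied little: the median SD of the 38 members was 0.118 there and 0.39 under vancomycin, beside 0.154 and 0.229 over all probe sets.

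Markers of other cell types were read in the same arrays. In limma 1 of 9 epithelial and 1 of 7 plasma cell markers were called lower under vancomycin, beside 0.485% of all probe sets. Of the smooth muscle, B cell, germinal centre, T cell and stem cell markers 0 were called. An unadjusted p under 0.05 was reached by 3, 0, 1, 4 and 2 of them, beside 10.1% of all probe sets. The mean of the 8 smooth muscle markers was 13.11 to 13.30 in untreated and 13.32 to 14.75 in vancomycin ileum, without overlap. All 8 had a higher mean under vancomycin, with a median difference of 0.78, beside 0.02 for all probe sets. The mean of the 9 epithelial markers was 15.37 to 15.44 and 14.92 to 15.38, and that of 6 measured germinal centre markers of 7 was 8.06 to 8.55 and 8.0 to 9.23. The mean of the 6 measured T cell markers of 8 ran from 9.99 to 10.50 and from 8.91 to 9.85, and that of the 7 plasma cell markers from 9.51 to 9.65 and from 8.59 to 9.17, both without overlap. All 6 T cell and all 7 plasma cell markers were lower under vancomycin, with median differences of -0.70 and -0.63. In limma 4 of the plasma cell markers had an unadjusted p under 0.05. Of the epithelial markers 6 of 9 were lower (median -0.12), while all 9 B cell (0.65) and 5 of 6 germinal centre markers (0.22) were higher. No array value is at 0, since the lowest in the file is 3.01. Replicate 14, the lowest array of the members, had means of 13.32 for smooth muscle, 7.21 for B cells and 15.38 for epithelium, and replicate 11, with the highest mean over the members among the vancomycin ilea (10.10 against 9.96 and 9.49), had 14.75, 10.09 and 14.92. The part of these markers in the result was not tested. The mean of 6 measured stem cell markers of 8 was 8.18 to 8.28 without and 8.04 to 8.19 with vancomycin. Of these 3 were higher and 3 lower, with differences from -0.44 to 0.22 and a median of -0.03. Group means without and with vancomycin were 7.82 and 8.03 for Lgr5, 6.07 and 5.63 for Ascl2, and 10.87 and 10.43 for Cdca7.

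**Figure D1:**
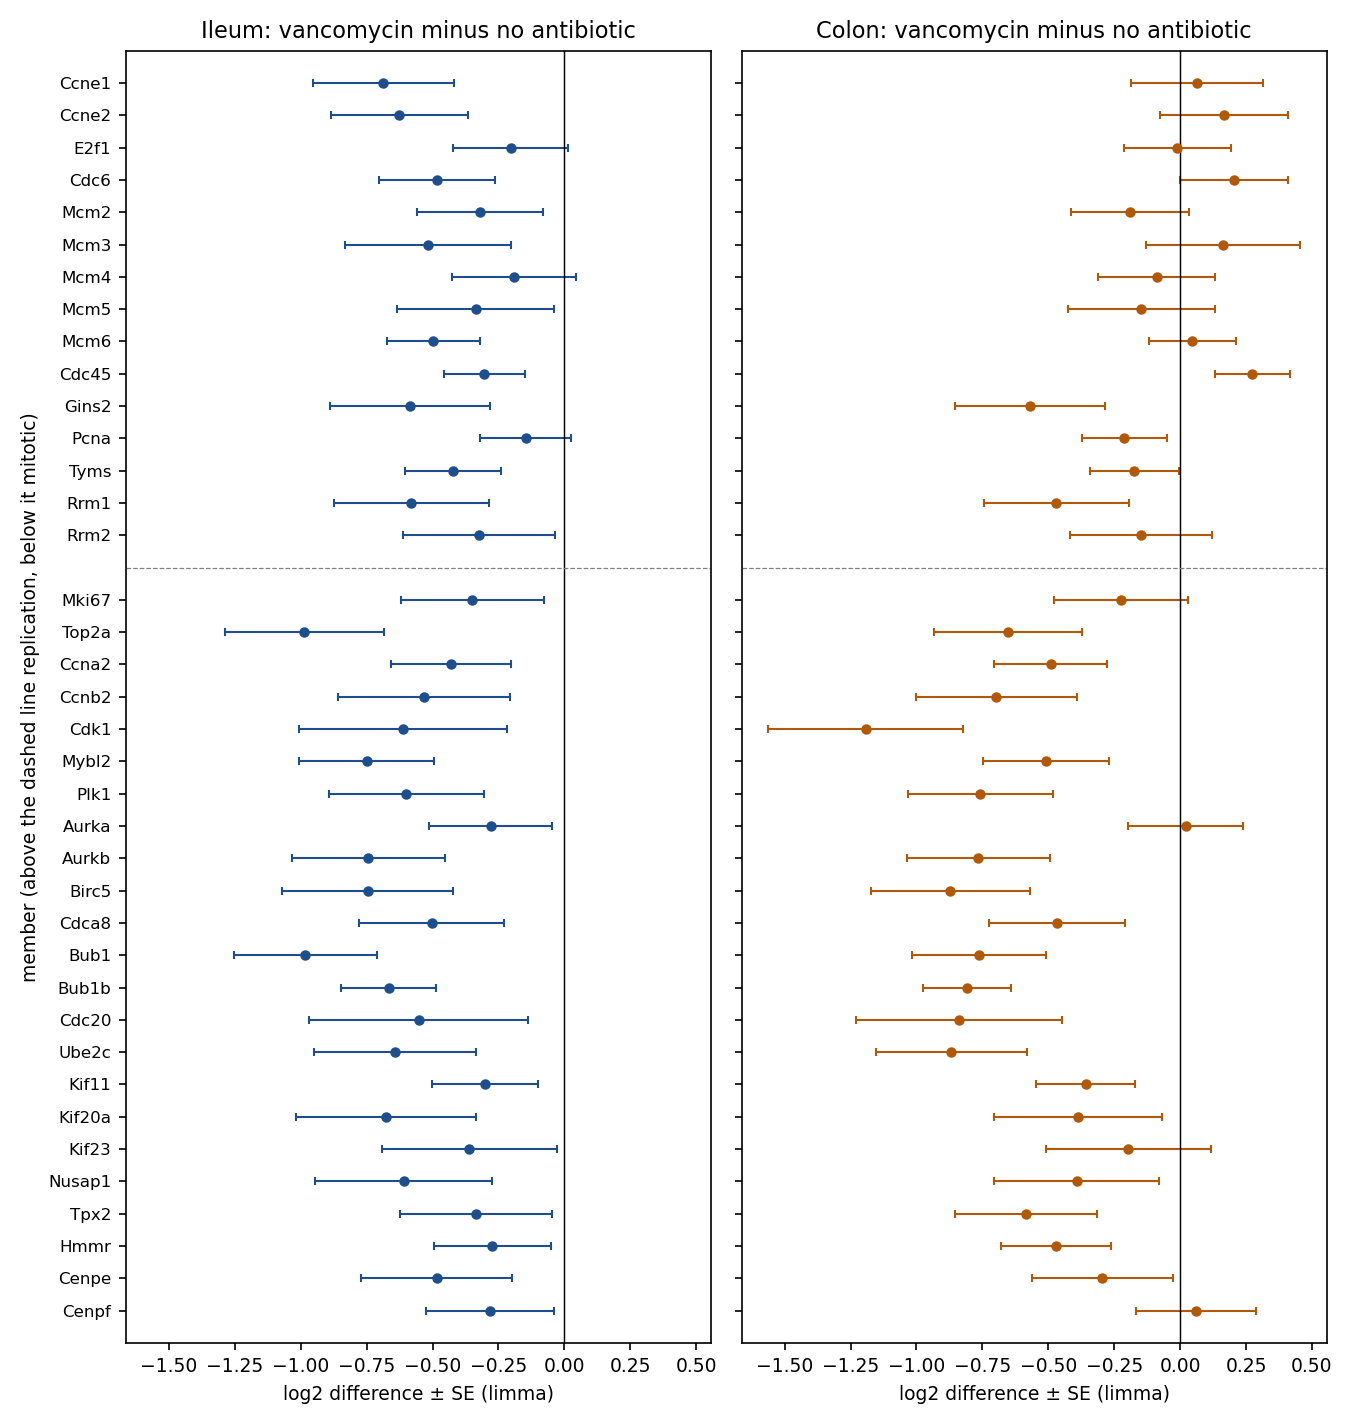
Log2 difference between vancomycin and no antibiotic for the 38 measured members in ileum (left) and colon (right); points are differences of group means and bars their SE from limma, with replication genes above the dashed line and mitotic genes below it. In ileum all 38 points lie below 0, and in colon 21 of 23 mitotic and 9 of 15 replication points do.

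In the colon, mitotic genes had a median difference of -0.51 under vancomycin, with 21 of 23 lower, and replication genes one of -0.09, with 9 of 15 lower, beside a median of 0.02 and 46.9% lower over all probe sets. No member passed in limma, where 0.0102% of all probe sets were called; 13 of 23 mitotic and 0 of 15 replication genes had an unadjusted p under 0.05, beside 15.9% of all probe sets. Only Bub1 and Bub1b had groups that did not overlap, 2 of 38 members, beside 12.3% of all probe sets.

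Bub1b was at 8.29, 8.36, 8.22 and 8.67 in untreated colon replicates 1, 2, 3 and 5 and at 7.34, 7.82 and 7.57 in vancomycin replicates 11, 13 and 14, a difference of -0.81 ± 0.17 (adjusted p = 0.0968). Cdk1, the kinase that drives mitosis, was at 11.46, 11.75, 10.27 and 11.64 without antibiotic and at 9.82, 10.88 and 9.56 with vancomycin (-1.19 ± 0.37, adjusted p = 0.175). Untreated replicate 3 lay below vancomycin replicate 13 in this gene, so the groups overlapped. Without untreated replicate 3 both passed, Cdk1 at -1.53 (adjusted p = 0.0423) and Bub1b at -0.86 (adjusted p = 0.0437). Ube2c, a ubiquitin enzyme that acts with the anaphase-promoting complex, was at 11.52, 12.35, 12.09 and 12.55 against 11.18, 11.95 and 10.65 (-0.87 ± 0.29, adjusted p = 0.19). Replicate 13 lay inside the untreated range.

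By role, the 4 checkpoint and anaphase-promoting complex genes lay between -0.87 and -0.76 (Bub1, Bub1b, Cdc20 and Ube2c), and the 3 chromosomal passenger genes between -0.87 (Birc5) and -0.47 (Cdca8). Genes of mitotic entry ran from -1.19 (Cdk1) to 0.02 (Aurka), and spindle and kinetochore genes from -0.58 (Tpx2) to 0.06 (Cenpf). Aurka, a kinase of the spindle poles, and Cenpf, a kinetochore protein, were the 2 mitotic genes that were not lower. The G1/S genes Ccne1, Ccne2 and E2f1 were at 0.06, 0.17 and -0.01.

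Cdc45, which joins the MCM ring in the active helicase, was at 7.47, 7.67, 7.87 and 8.0 without and 8.0, 8.13 and 7.95 with vancomycin (0.27 ± 0.14, adjusted p = 0.357). Gins2 was at 9.29, 9.96, 8.77 and 9.11 against 8.21, 9.29 and 8.64 (-0.57 ± 0.28, adjusted p = 0.342). Rrm1, the large subunit of ribonucleotide reductase, was at 10.29, 11.08, 10.77 and 10.79 against 9.96, 10.93 and 9.90 (-0.47 ± 0.27, adjusted p = 0.417). All 3 groups overlapped. The remaining replication genes lay between -0.21 (Pcna) and 0.20 (Cdc6).

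Vancomycin colon replicate 13 held the highest of the 3 vancomycin values in 37 of 38 members, where it did in 31.8% of all probe sets. Without it the medians were -0.88 for mitotic genes, 23 of 23 of them lower, and -0.28 for replication genes, 14 of 15 of them lower. Without replicate 11 they were -0.40 and 0.07, and without replicate 14 they were -0.46 and 0.0075; the direction of the replication median thus turned without either array, while that of the mitotic median held without any 1 array. The median SD of the members was 0.539 in vancomycin colon and 0.329 in untreated colon, beside 0.208 and 0.218 over all probe sets. The smooth muscle mean was 14 in replicate 13 and 14.95 and 14.64 in replicates 11 and 14; among untreated colons it was 13.85 in replicate 2 and 14.73 to 15 in the others, and the members' mean was 10.46 in replicate 2 and 10.01, 10.16 and 10.55 in replicates 1, 3 and 5. The B cell mean was 7.56 to 8.45 without and 7.71 to 8.73 with vancomycin, and the stem cell mean 7.86 to 8.01 and 7.88 to 7.98. The epithelial mean was 14.85 to 14.98 without and 14.69 to 14.77 with vancomycin, without overlap. The plasma cell mean was 8.85 to 9.26 without and 8.24 to 8.78 with vancomycin, also without overlap. Of these markers 7 of 7 had a lower mean, beside 46.9% of all probe sets. An unadjusted p under 0.05 was reached by 4, beside 15.9% of all probe sets, and 0 were called in limma. The part of these markers in the members' values was not tested.

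**Figure D2:**
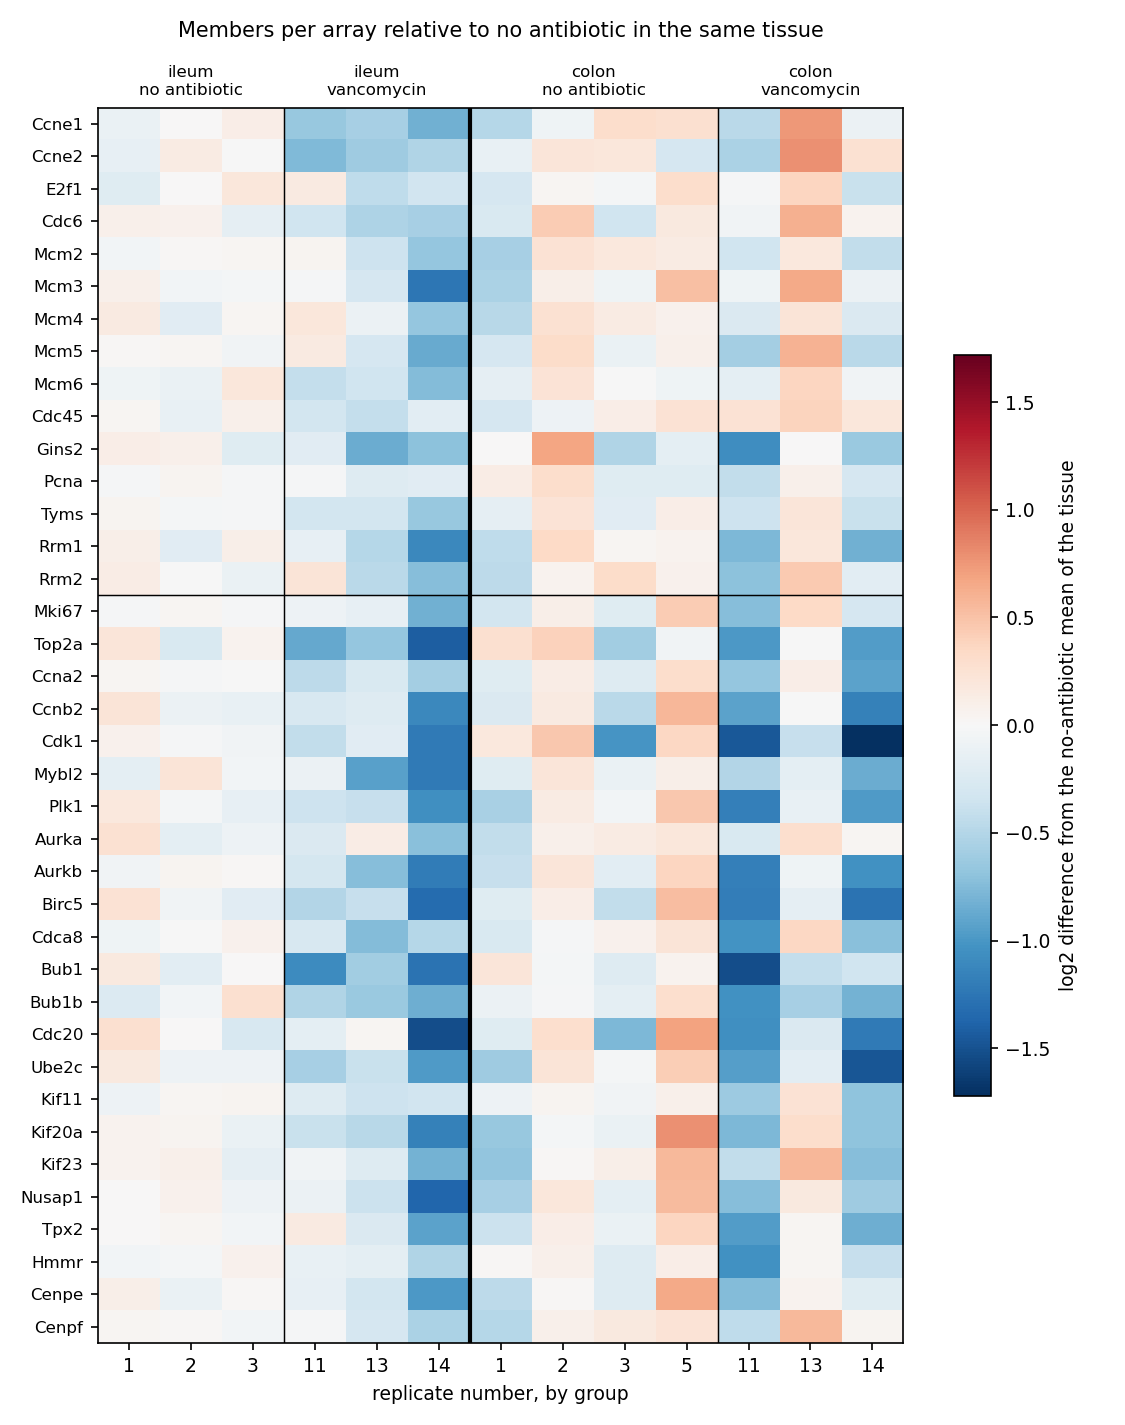
Log2 value of each member on each array minus the mean of the untreated arrays of the same tissue (blue lower, red higher), with replication genes above the horizontal line. Ileum replicate 14 and colon replicates 11 and 14 under vancomycin are the bluest columns, and colon replicate 13 is above the other 2 vancomycin colons in 37 of 38 rows.

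Within each array, the mean of the mitotic members minus that of the replication members leaves out whatever moves both classes alike. Its size depends on the probes and only its change between groups can be read. It was 0.44, 0.34, 0.23 and 0.70 in untreated colon replicates 1, 2, 3 and 5 and -0.09, 0.07 and -0.11 in vancomycin replicates 11, 13 and 14. The colon groups did not overlap, and this holds for replicate 13, whose mitotic mean of 10.49 lay inside the untreated range of 10.19 to 10.82. The group means were 0.43 ± 0.20 (SD, n = 4) and -0.04 ± 0.10 (n = 3). In ileum it was 0.31, 0.25 and 0.20 without and 0.10, 0.30 and -0.05 with vancomycin, and the groups overlapped. No test was made of this difference, since it is a score over chosen genes.

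**Figure D3:**
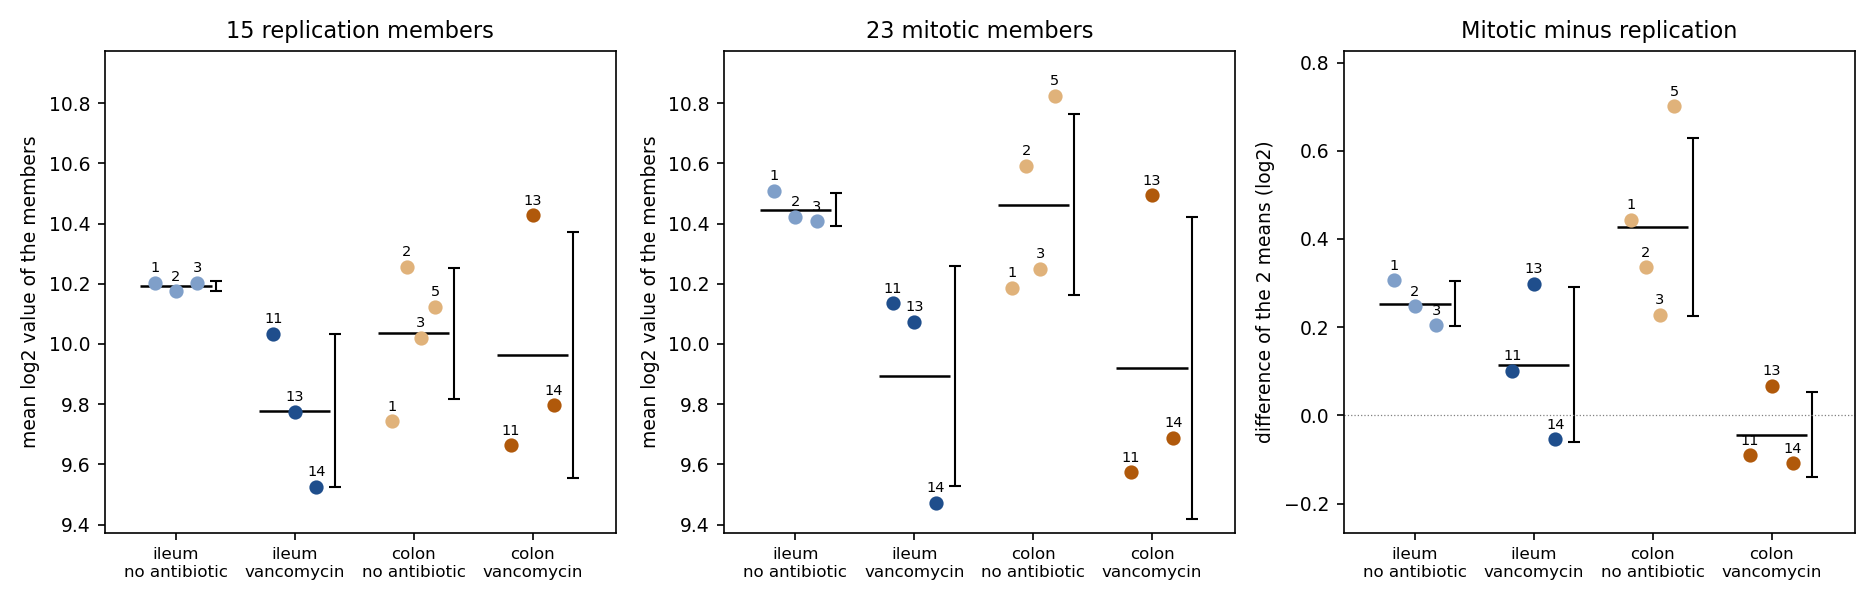
Mean log2 value of the 15 replication members (left) and of the 23 mitotic members (middle), and the second minus the first (right), for each array; points are arrays with their replicate numbers, lines are group means and bars 1 SD. The vancomycin colons lie below all untreated colons on the right (at most 0.07 against at least 0.23), while replicate 13 lies among or above them in the other panels.

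Further genes of the same processes were read from longer lists, which hold no member. Of 59 measured mitotic genes outside the members, 55 had a lower mean in vancomycin ileum (median -0.37) and 53 in vancomycin colon (median -0.27). In limma 0 were called in either tissue, and 14 and 15 had an unadjusted p under 0.05. Over all probe sets 45.9% had a lower mean in ileum and 46.9% in colon. Calls were made for 0.536% and 0.0102% of them, and 10.1% and 15.9% had an unadjusted p under 0.05. In colon the smallest p values were those of Cks1b (-1.10 ± 0.23, adjusted p = 0.0968) and Cks2 (-0.61 ± 0.16, adjusted p = 0.139), small subunits of cyclin-dependent kinases, followed by Ckap2 (-0.66) and Pttg1, which encodes securin (-0.45). In ileum they were those of the kinesins Kif18a (-0.66 ± 0.17, adjusted p = 0.145) and Kifc1 (-0.49), with Cdca2 (-0.70) and Cks2 (-0.55). Without vancomycin ileum replicate 11 the ileal medians were -0.43 for this list and -0.33 for the replication list, and Cdca2 passed (-0.92, adjusted p = 0.0469). Of 40 further replication genes, 33 were lower in ileum (median -0.26) and 25 in colon (median -0.12), again with 0 called by limma. An unadjusted p under 0.05 was reached by 7 in ileum and by 3 in colon, in colon a smaller share than over all probe sets. Cdt1, which loads the helicase with Cdc6, was at -0.55 ± 0.15 in ileum (adjusted p = 0.166), with Gins1 at -0.91, Fen1 at -0.73 and Pold1 at -0.88. In colon Pola1, a subunit of the polymerase that primes DNA synthesis, was at 1.03 ± 0.33 (adjusted p = 0.184), with Rfc2 at -0.56, Pole2 at -0.51 and Pold1 at -0.55. The mitotic list minus the replication list, per array, was 0.13, 0.11, 0.11 and 0.50 in untreated and -0.11, 0.12 and -0.10 in vancomycin colon, with replicate 13 inside the untreated range, unlike for the members.

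Of 28 measured inhibitors and G1 regulators, 17 had a lower mean in vancomycin ileum (median -0.07) and 18 in vancomycin colon (median -0.08). Over all probe sets 45.9% and 46.9% had a lower mean. In limma 0 were called in either tissue. An unadjusted p under 0.05 was reached by 5 and 3, beside 10.1% and 15.9% of all probe sets, in colon a smaller share than over all probe sets. Myc, a growth factor target that promotes entry into the cycle, was at -0.97 ± 0.35 in ileum (adjusted p = 0.35) and -0.93 ± 0.33 in colon (adjusted p = 0.205). In colon Ccng2, a cyclin of resting cells, was at 0.98 ± 0.32 (adjusted p = 0.185), Rbl2, the pocket protein p130, at 0.34 and the inhibitor Cdkn2c at -0.32. In ileum E2f8 was at -0.64, E2f4 at -0.37 and Cdkn1a, the inhibitor p21, at -0.83.

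The difference between the 2 vancomycin changes, ileum minus colon, was tested for each gene. No member was called in limma, where 0.189% of all probe sets were (0.0307% above 0 and 0.158% below), and 4 of 38 had an unadjusted p under 0.05, beside 8.01%. The median was -0.19 for replication genes, 14 of 15 of them below 0, and 0.02 for mitotic genes, 11 of 23 below 0; over all probe sets it was 0.00 with 49.4% below 0. The smallest p-values were those of Cdc45 (-0.58 ± 0.21, adjusted p = 0.471), Cdc6 (-0.69 ± 0.30, adjusted p = 0.585) and Ccne2 (-0.79 ± 0.36, adjusted p = 0.605). Cdc6, the loader of the MCM ring, was at 8.69, 8.68 and 8.45 in untreated and 8.26, 8.08 and 8.03 in vancomycin ileum, with no overlap, and at 7.81, 8.51, 7.73 and 8.24 in untreated and 8.01, 8.69 and 8.13 in vancomycin colon, with overlap. In colon Ccne2 was at 11.69, 12.02, 12.01 and 11.53 without and 11.27, 12.60 and 12.07 with vancomycin, and Ccne1 at 10.82, 11.23, 11.61 and 11.58 against 10.85, 12.06 and 11.21, so the vancomycin colons spread around the untreated ones. Among mitotic genes Cdk1 (0.58 ± 0.54), Cenpf (-0.34 ± 0.33) and Aurka (-0.30 ± 0.32) came first, with adjusted p of 0.848 to 0.868. Cdk1 in ileum was at 11, 10.90 and 10.86 without and 10.50, 10.72 and 9.70 with vancomycin, without overlap. Aurka was at 8.73, 8.29 and 8.37 against 8.21, 8.59 and 7.75 in ileum and at 7.76, 8.27, 8.33 and 8.38 against 7.92, 8.48 and 8.22 in colon, and overlapped in both. Outside the members Kif18a (-0.76 ± 0.23, adjusted p = 0.349), Pola1 (-1.30 ± 0.49, adjusted p = 0.489) and Ccng2 (-1.45 ± 0.47, adjusted p = 0.383) had the smallest p of their lists, and none passed. With 1 array left out the replication median ranged from -0.44 (without vancomycin ileum replicate 11) to -0.0033 (without vancomycin colon replicate 13), and the mitotic median from -0.18 (without vancomycin colon replicate 11) to 0.36 (without vancomycin colon replicate 13). The count of calls was 0 in each.

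Colon and ileum were also compared directly. Without antibiotic the colon minus ileum differences of the members went both ways, from -0.79 to 0.62, with a median of -0.12 for replication and 0.03 for mitotic genes, beside 0.04 for all probe sets. In limma 5 of 38 members were called, or 2 higher in colon and 3 lower, beside 20.5% of all probe sets (11% higher and 9.59% lower). A lower mean in colon was found for 45.4% of all probe sets. The values did not overlap for 7 of 38, beside 32.2% of all probe sets.

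Tyms, thymidylate synthase, was higher in colon, at 12.54, 12.93, 12.49 and 12.80 against 12.14, 12.06 and 12.07 in ileum (0.60 ± 0.17, adjusted p = 0.0215). Hmmr, a spindle protein that also binds hyaluronan, was higher in colon, at 10.29, 10.35, 10.05 and 10.38 against 9.60, 9.61 and 9.72 (0.62 ± 0.21, adjusted p = 0.047). Ccne1 was lower in colon, at 10.82, 11.23, 11.61 and 11.58 against 11.98, 12.10 and 12.21 (-0.79 ± 0.25, adjusted p = 0.0394). The groups did not overlap in any of these. Mybl2 was lower in colon, at 8.37, 8.79, 8.46 and 8.68 against 9.18, 9.57 and 9.30 (-0.78 ± 0.24, adjusted p = 0.0335), and so was Cdc45, at 7.47, 7.67, 7.87 and 8.0 against 8.22, 8.06 and 8.28 (-0.43 ± 0.14, adjusted p = 0.0446), both without overlap. Cenpf, next among mitotic genes, was at 7.87, 8.45, 8.52 and 8.59 against 8.08, 8.06 and 7.99 and overlapped (0.31 ± 0.23, adjusted p = 0.404).

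These 5 calls rest on few arrays. Without any 1 of the untreated ilea none of the 5 passed and no other member did, with colon minus ileum differences that kept their direction. With any 1 array left out, Tyms ranged from 0.52 to 0.67 (adjusted p up to 0.0727), Hmmr from 0.59 to 0.70 (up to 0.129), Ccne1 from -0.89 to -0.62 (up to 0.133), Mybl2 from -0.86 to -0.67 (up to 0.136) and Cdc45 from -0.52 to -0.34 (up to 0.16). Without untreated colon replicate 1, 2 or 5 the counts were 1, 2 and 2, without vancomycin colon replicate 14 the count was 3, and without vancomycin ileum replicate 13 it was 2. Without untreated colon replicate 2 Cdc6 passed (-0.68, adjusted p = 0.0281). Smooth muscle markers were higher in colon, with a list mean of 13.85 to 15 against 13.11 to 13.30, and the T cell mean was lower, at 7.69 to 8.35 against 9.99 to 10.50; their part in the 5 calls was not tested.

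Under vancomycin 2 of 38 members were called, both higher in colon, where 15.1% of all probe sets were called (7.45% higher and 7.67% lower), and the same 2 were the only members without overlap, beside 27.4% of all probe sets. Tyms was at 12.34, 12.90 and 12.31 in colon and 11.78, 11.78 and 11.44 in ileum (0.85 ± 0.18, adjusted p = 0.00498), and passed whichever array was left out. Over all probe sets, the deviations of same-numbered vancomycin samples correlated at 0.24, 0.18 and 0.11 for numbers 11, 13 and 14. The members' means did not follow the number: they were 9.61, 10.47 and 9.73 in colon and 10.10, 9.96 and 9.49 in ileum. With the number as a replicate block in limma, Tyms had an SE of 0.17 and an adjusted p of 0.00911. Mcm6 was at 11.45, 11.99 and 11.56 against 11.13, 11.20 and 10.80 (0.62 ± 0.18, adjusted p = 0.0283; 0.0394 with the replicate block), and lost the call without vancomycin colon replicate 13 or vancomycin ileum replicate 14, with an adjusted p of up to 0.128 and a difference of 0.46 to 0.73. The next members did not pass and overlapped: Cenpf at 7.92, 8.92 and 8.41 against 8.02, 7.76 and 7.5 (0.66 ± 0.24, adjusted p = 0.0909), Mybl2 (8.07, 8.41 and 7.72 against 9.25, 8.42 and 8.13) at -0.53 ± 0.26, Hmmr (9.22, 10.30 and 9.87 against 9.51, 9.48 and 9.12) at 0.43 ± 0.22 and Mcm3 (9.15, 9.87 and 9.12 against 9.48, 9.21 and 8.25) at 0.40 ± 0.31. With the replicate block their adjusted p were 0.122 to 0.339. An unadjusted p under 0.05 was reached by 3 of 38, beside 26.7% of all probe sets, and 44.8% of all probe sets had a lower mean in colon. Without vancomycin colon replicate 11 there were 5 calls, with Ccne2 (0.67), Hmmr (0.72) and Cenpf (0.91) added, and without vancomycin ileum replicate 14 there was 1. Without vancomycin ileum replicate 11 there were 3, with Cenpf added (0.79, adjusted p = 0.0487), and without vancomycin colon replicate 13 Cdca8 took the place of Mcm6 (-0.70, adjusted p = 0.0275). The median colon minus ileum difference was 0.13 for replication and 0.03 for mitotic genes, beside 0.04 for all probe sets. Leaving out vancomycin colon replicate 13 turned both below 0, to -0.06 and -0.23, and leaving out vancomycin ileum replicate 14 turned the mitotic median to -0.16.

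**Figure D4:**
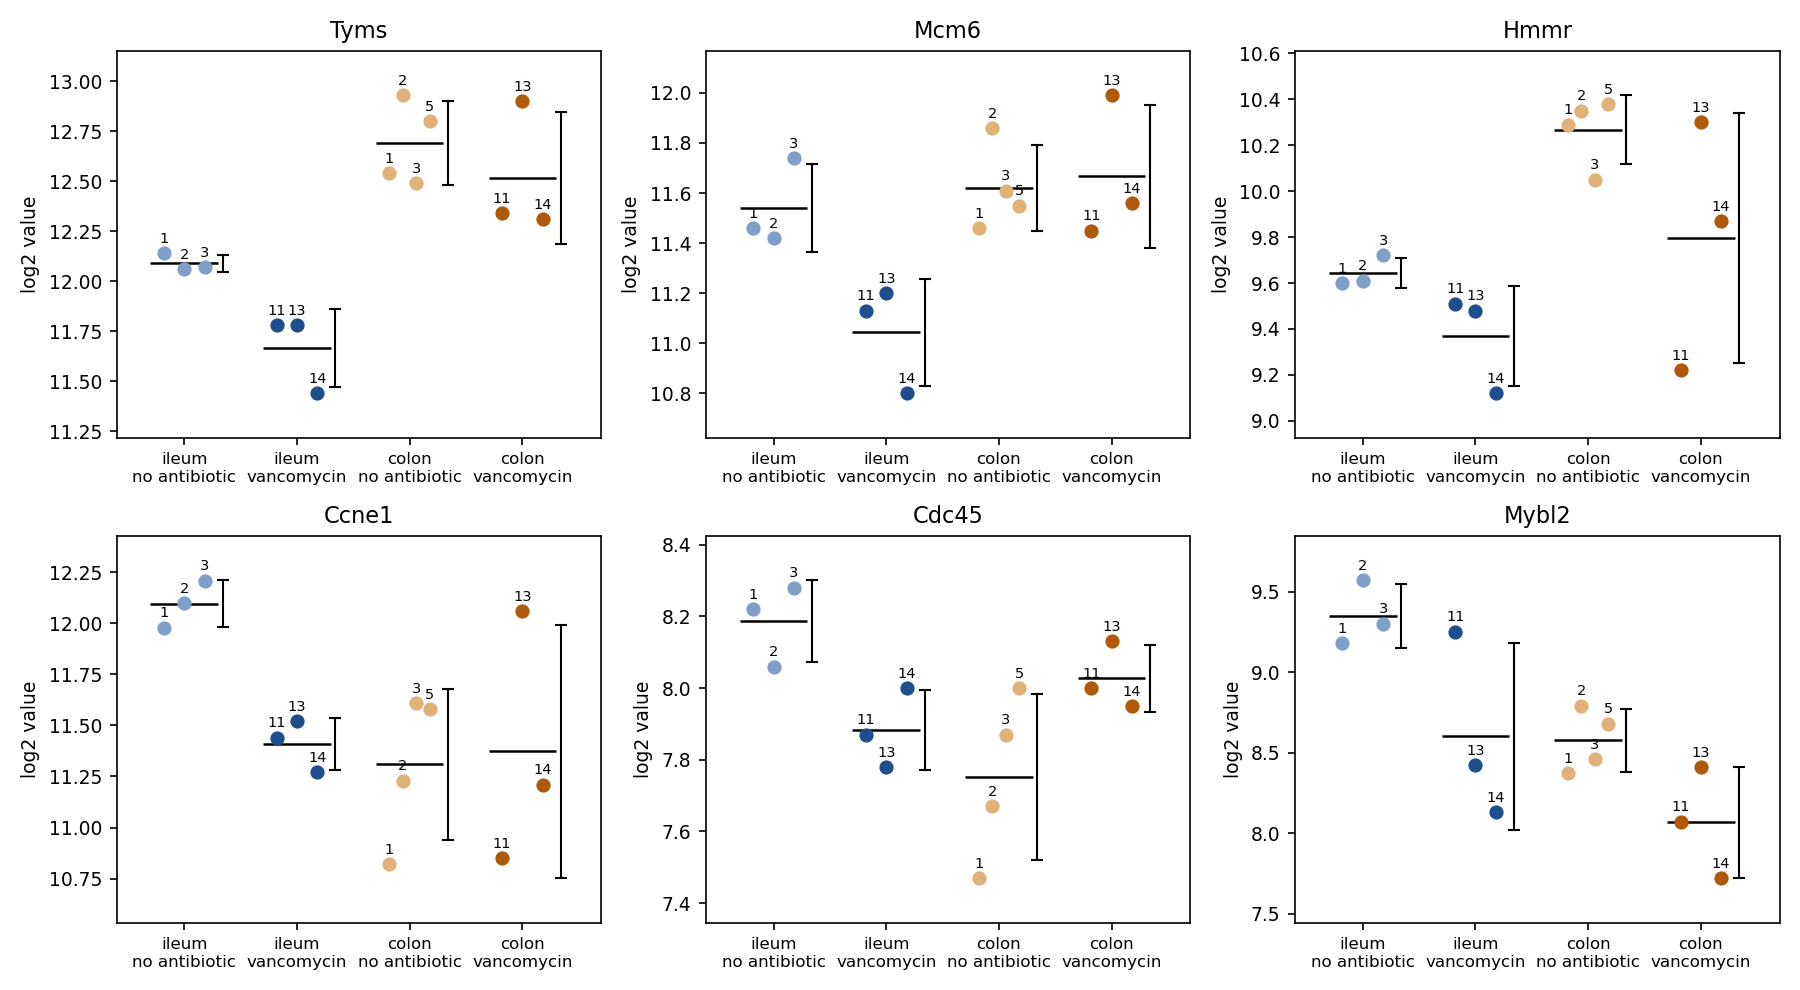
Log2 values per array, with replicate numbers, for the 6 members called between colon and ileum in either condition; lines are group means and bars 1 SD. Tyms is higher in every colon (at least 12.31) than in every ileum (at most 12.14), while Mcm6 is separated between the tissues only under vancomycin.

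Among the other genes of the pathway, counts of calls between the tissues were read beside the 20.5% of all probe sets called without antibiotic and the 15.1% under vancomycin. Of 28 inhibitors and G1 regulators 8 were called without antibiotic, 2 higher and 6 lower in colon. Cdkn2b, the inhibitor p15, was at 10.64 ± 0.12 (SD, n = 4) in colon and 12.02 ± 0.09 (n = 3) in ileum (-1.39 ± 0.15 SE, adjusted p in limma = 8.61e-06), E2f2 differed by -1.82 ± 0.21, Rb1, the retinoblastoma gene, by -1.29 ± 0.19 and Ccng2 by -1.87 ± 0.32. Under vancomycin 5 of the 28 were called: Cdkn2b (-1.29), E2f2 (-1.73), Rb1 (-1.25) and Cdkn2c (-0.69) were lower in colon and Rbl2 (0.43) was higher. Of 40 further replication genes 5 were called without antibiotic, with Fen1 (-1.09), Mcm10 (-0.73), Pola2 (-0.69) and Gins1 (-0.83) lower in colon and Pole2 (0.68) higher, and 1 under vancomycin, Pola2 (-0.63); the next there were Rfc5 (0.46), Mcm10 (-0.52) and Ung (0.34), which did not pass. Of 59 further mitotic genes 3 were called without antibiotic, Lmnb1 (-0.73), Cks2 (0.50) and Cit (0.65), and 2 under vancomycin, Kif18a (0.76) and Ncapg2 (0.79); Ncapg2 without antibiotic (0.56) and Ttk (0.75) and Cenpk (0.65) under vancomycin did not pass.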

How the data were processed

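Biotin-labelled RNA of 13 samples was measured on Affymetrix mouse arrays with 1 colour. The submitters' processing notes name RMA and version 1.4.1.46 of Affymetrix Expression Console, so the unit of the deposited table is log2 expression. RMA brings all arrays to nearly the same distribution, so a change in total RNA per cell cannot be seen. The medians over named probe sets still ran from 7.92 (vancomycin ileum replicate 14) to 8.12 (vancomycin ileum replicate 11). Of 28846 probe sets, 19572 had 1 gene symbol in the platform annotation, and all matched RefSeq (GRCm38.p6) by Entrez identifier, with 0 symbols changed. Where a gene had several (55 genes, 0 members) the brightest stood for it. 

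Group means were fitted over all 13 arrays with limma 3.58.1 under R 4.3.3 (functions lmFit, then eBayes), and 5 contrasts were taken, each with Benjamini-Hochberg adjustment over 19572 probe sets. The steps were tested on simulated data. Of simulated log2 changes of 0.5, limma called 5.97% in the vancomycin contrast of the ileum and 10.4% in that of the colon. Of changes of 1 it called 64.2% and 70.1%. A member that changed by about 0.5 would thus mostly not be called. No detection calls were used, and the number of arrays limits the precision. The genes, lists and tests were chosen with earlier results of these data known. Values per array are given for members past the threshold and, per comparison, for the 3 replication and 3 mitotic members with the smallest p. Of each other list up to 4 genes with the smallest p are named. Mki67, the members that were called only under an alternative and the genes at the ends of ranges were named after their values were seen. The alternatives are given in the closing section.

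Samples of the same number in colon and ileum were checked for pairing by the correlation of their deviations from group means over all probe sets. It was 0.24, 0.18 and 0.11 for numbers 11, 13 and 14, and 0.08, 0.03 and -0.02 for numbers 1, 2 and 3. By the rule that every pair exceed 0.1, the vancomycin samples were taken as paired and the untreated ones were not. Deviations within a group are tied to each other, so these correlations are not separate checks. The tests printed first come from the fit without pairing, and the blocked values stand beside them for colon against ileum under vancomycin. That blocked fit also took the untreated numbers 1, 2 and 3 as blocks and left out untreated colon replicate 5.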

Additional observations from a re-analysis of the deposited data

Results flagged for a closer look

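Mcm2, a helicase subunit, was the only one of 38 members and 2 class means with 1 untreated colon array far from the other 3. Replicate 1 was at 10.07, and the others were at 10.90, 10.83 and 10.79; the gap was 0.867 of the range, above Dixon's critical value for 4 samples. Chance gives such a gap in about 1 of 20 groups, and 1 of 40 values showed it here. Replicate 1 was the lowest untreated colon for 24 of 38 members. No member had a vancomycin change that passed as different between the tissues, and none moved in opposite directions without overlap.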

How the results depend on the processing

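Counts of called members were small and moved with the processing; the cause was not tested. In vancomycin ileum the count was 0, but 2 with array weights, 1 without both arrays numbered 11 and 0 to 1 with 1 array left out. In vancomycin colon it was 0, and 0 to 2 with 1 array left out. For colon against ileum without antibiotic it was 5, but 3 with trended and robust variance moderation, 3 after repeated quantile normalization, 2 without both arrays numbered 14 and 0 to 5 with 1 array left out. Under vancomycin it was 2, but 1 in a fit of those 2 groups alone, 1 without both arrays numbered 14, 4 without both arrays numbered 11 and 1 to 5 with 1 array left out. The fits without both arrays of a number were chosen after seeing the data. The count for the difference between tissues was 0 in every alternative run.

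The ileum minus colon median moved beyond the spread between arrays without both arrays numbered 11, from -0.19 to -0.58 for replication and from 0.02 to -0.40 for mitotic genes. With 1 array left out the vancomycin medians ranged from -0.55 to -0.31 (replication) and -0.68 to -0.31 (mitotic) in ileum and from -0.28 to 0.07 and -0.88 to -0.40 in colon. Colon against ileum, they ranged from -0.22 to -0.02 and -0.11 to 0.19 without antibiotic and from -0.06 to 0.26 and -0.23 to 0.17 under vancomycin. After array weights, a shift to a common median or repeated quantile normalization the mitotic medians were -0.39, -0.58 and -0.50 in ileum and -0.48, -0.48 and -0.48 in colon.

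With the replicate number as a fixed replicate block, 4 members were called between the tissues without antibiotic (Hmmr was lost), 2 under vancomycin and 0 for the difference. A random replicate block (correlation 0.0975) changed no call among the members.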
